A study of Mus musculus with 4 samples.

Results

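The 6782 accessible peaks near the ends of the mouse autosomes were compared between Sun1_KO and Sun1_WT tumours, in tumour nuclei and in myeloid nuclei. Members were the peaks called in the Sun1_WT accessibility library on chromosomes 1 to 19 that start below 6 Mb, on the centromere side, or that end within 3 Mb of the last peak of the chromosome, on the telomere side. These were 3044 and 3738 of the 127147 peaks of that library, and 117022 autosomal peaks lay between them in the interior. The tumours grew from CT26 cells, a mouse colon cancer line of BALB/c origin, injected under the skin of BALB/c mice and collected at day 14. The injected cells carried a knockout of Sun1 (Sun1_KO) or were wild type (Sun1_WT). The labels give the genotype with the cell line and name no host mutation, and the genotype is read here as that of the tumour cells, not of the myeloid cells around them. The labels do not say how many knockout clones or animals stood behind a library. Each genotype had 1 expression and 1 accessibility library, made from the same nuclei, so no difference has a replicate check and none was tested.

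Mouse autosomes are acrocentric: the centromere, with its satellite repeats, sits at one tip, and the assembled sequence begins after a gap. The first peak of the table on any autosome began at position 2999890. The opposite tip ends in TTAGGG repeats, which the shelterin proteins cover. SUN1 is a protein of the inner nuclear membrane that joins chromatin and lamins to the cytoskeleton through the nesprins, and in mouse germ cells it anchors chromosome ends to the nuclear envelope through TERB1, TERB2 and MAJIN. Pericentromeric chromatin is packed as heterochromatin, in which HP1 proteins bind the histone mark that SUV39H enzymes write.

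Tumour nuclei were gated by at least 1 UMI of Hmga2, a chromatin protein of embryonic and tumour cells, with few leukocyte UMIs. Myeloid nuclei were gated by macrophage genes such as Lyz2, Csf1r and C1qa, without Hmga2. The gates held 1199 Sun1_KO and 2324 Sun1_WT tumour nuclei, and 178 Sun1_KO and 217 Sun1_WT myeloid nuclei. Median accessibility counts per tumour nucleus were 91966 in Sun1_KO and 75394 in Sun1_WT, and per myeloid nucleus 25046 and 24101. Mitochondrial UMIs made 11.3% of the RNA of Sun1_KO tumour nuclei and 6.97% in Sun1_WT. The 8 tumour markers summed to 5672 and 4009 RNA CPM (UMIs scaled to an equal total of non-mitochondrial UMIs in each class and library) in the tumour nuclei of Sun1_KO and Sun1_WT, the 15 myeloid markers to 146 in both, and the 5 fibroblast markers to 339 and 599. Ptprc, the pan-leukocyte gene, was at 9.65 and 3.03 RNA CPM. In myeloid nuclei the myeloid markers summed to 10963 and 15682 RNA CPM, the B-cell markers were at 0 in both libraries, and the tumour list stood at 111 and 126. Both libraries shared 12 barcodes. Sun1 RNA itself was counted at 1412 UMIs in Sun1_KO and 4361 in Sun1_WT tumour nuclei, 64.6 and 105 RNA CPM, a log2 ratio of −0.70. Sun1 RNA was thus still counted in the Sun1_KO library, and which part of the gene was altered is not stated in the labels.

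Promoters of 6 genes of the ends are printed here, because the results set accessibility at a promoter beside the RNA of its gene. Each is the 250 bases before a RefSeq start of the gene (GRCm38.p6, the assembly called mm10, 5′ to 3′ on the gene's strand). For Adcy9, Slc16a3 and Il11 this start lies inside the annotated gene, while RNA was counted per gene. The Adcy9 promoter lies in a member region that was lower in Sun1_KO tumour nuclei. For Slc16a3 both promoter accessibility and RNA were lower. For Pthlh and Akr1c18 RNA was lower and the promoter ratio below 0 but within 1.5-fold, while Il11 and Rnaseh2c had less RNA without lower promoter accessibility. Capitals mark an AP-1 site (TGANTCA, either strand), bound by Fos and Jun proteins, or a telomere repeat unit (TTAGGG or CCCTAA). The Il11 site starts 98 bases before the RefSeq start used for that gene, and the Rnaseh2c repeat unit 195 bases before the one used for Rnaseh2c.
Adcy9, chr16:4420499-4420748, minus strand: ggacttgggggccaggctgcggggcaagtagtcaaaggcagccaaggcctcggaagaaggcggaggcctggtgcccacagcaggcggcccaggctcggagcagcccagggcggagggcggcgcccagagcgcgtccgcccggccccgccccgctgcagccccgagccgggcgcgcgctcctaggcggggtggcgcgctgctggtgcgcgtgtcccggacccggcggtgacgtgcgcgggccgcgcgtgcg
Slc16a3, chr11:120948817-120949066, plus strand: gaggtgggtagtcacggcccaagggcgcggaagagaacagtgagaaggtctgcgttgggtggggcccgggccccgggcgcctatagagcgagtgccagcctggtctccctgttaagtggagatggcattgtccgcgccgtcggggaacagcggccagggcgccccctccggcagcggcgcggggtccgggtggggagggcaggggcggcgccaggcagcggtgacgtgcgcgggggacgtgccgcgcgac
Pthlh, chr6:147264014-147264263, minus strand: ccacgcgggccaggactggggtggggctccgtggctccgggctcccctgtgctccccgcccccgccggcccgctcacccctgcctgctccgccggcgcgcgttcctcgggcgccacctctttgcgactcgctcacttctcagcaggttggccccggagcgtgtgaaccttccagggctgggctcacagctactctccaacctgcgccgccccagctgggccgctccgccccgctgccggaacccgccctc
Akr1c18, chr13:4150647-4150896, minus strand: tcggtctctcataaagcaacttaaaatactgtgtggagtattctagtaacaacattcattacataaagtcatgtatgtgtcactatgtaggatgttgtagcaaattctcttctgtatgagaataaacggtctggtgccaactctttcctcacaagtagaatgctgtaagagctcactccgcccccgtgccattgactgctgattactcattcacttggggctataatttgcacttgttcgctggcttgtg
Il11, chr7:4778142-4778391, minus strand: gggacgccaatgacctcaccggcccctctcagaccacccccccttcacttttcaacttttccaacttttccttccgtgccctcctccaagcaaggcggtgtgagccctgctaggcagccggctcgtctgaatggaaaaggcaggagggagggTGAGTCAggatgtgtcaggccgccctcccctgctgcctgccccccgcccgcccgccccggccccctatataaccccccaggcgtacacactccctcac
Rnaseh2c, chr19:5601623-5601872, plus strand: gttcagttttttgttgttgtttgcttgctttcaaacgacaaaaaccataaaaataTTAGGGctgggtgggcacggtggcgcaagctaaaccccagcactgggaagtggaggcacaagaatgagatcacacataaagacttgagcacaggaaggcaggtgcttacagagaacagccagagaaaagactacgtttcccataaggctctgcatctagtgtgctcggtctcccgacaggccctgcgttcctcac
The Adcy9, Pthlh and Slc16a3 promoters were rich in G and C, at 78.8%, 75.2% and 73.6%, and held 34, 26 and 29 CpG pairs. Akr1c18 stood apart with 41.6% and 5 pairs. Of 873 RefSeq promoters on the centromere side, 9.85% held a telomere repeat unit, of 1074 on the telomere side 8.66%, and of all 31396 promoters 9.30%. An AP-1 site was found in 4.81% and 5.4% of promoters of the sides and in 6.77% of all. A match says only that the letters are there.

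Near the ends as a whole, accessibility in Sun1_KO tumour nuclei was close to that in Sun1_WT, with the centromere side slightly higher and the telomere side slightly lower. Of the member peaks, 2764 on the centromere side (90.8%) and 3317 on the telomere side (88.7%) overlapped a Sun1_KO peak, near the 89.7% of the interior. Merged with those peaks they gave 2763 and 3313 shared regions. The 280 and 421 members without a Sun1_KO peak were shallow, with median counts of 160 and 183 in Sun1_WT tumour nuclei against 580 and 675 for the others. They held 1.42% and 1.74% of the counts of their side. Of the Sun1_KO peaks in the same windows, 479 of 3244 and 526 of 3841 overlapped no Sun1_WT peak, beside 18935 of 123919 in the interior. These held 1.92% and 1.73% of the Sun1_KO tumour counts of their side, beside 2.02% in the interior. The single member on the centromere side of chromosome 14 had no Sun1_KO peak, which left 18 measured ends on that side and 19 on the other.

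Regions of the centromere side took 2.82% of the shared autosomal counts in Sun1_KO tumour nuclei and 2.76% in Sun1_WT, a summed log2 ratio of 0.03 (0.018 without the start of chromosome 9 and 0.011 with the interior median set to 0). The telomere side took 3.49% and 3.54%, a log2 ratio of −0.02. A ratio throughout is Sun1_KO over Sun1_WT, after adding 0.5 to counts of single regions and dividing by shared autosomal counts. Counted per nucleus over the same shared regions, the median share of the centromere side was 2.82% in Sun1_KO and 2.75% in Sun1_WT tumour nuclei, and of the telomere side 3.49% and 3.53%. In myeloid nuclei these medians were 3.03% in Sun1_KO and 3.01% in Sun1_WT for the centromere side, and 3.25% and 3.27% for the telomere side.

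A region was measured in a class of nuclei where it had at least 100 counts over both libraries, and was called higher or lower at a fold of 1.5. In tumour nuclei, 2692 centromere-side regions were measured, with 229 higher (8.51%) and 97 lower (3.6%), beside 7.28% higher and 4.93% lower among all shared autosomal regions. Their median log2 ratio was 0.05, beside 0.02 in the interior. Of 3225 telomere-side regions, 162 were higher (5.02%) and 164 lower (5.09%), and their median was 0.00. In myeloid nuclei the depth allowed 688 and 767 regions. On the centromere side 31 were higher and 19 lower (4.51% and 2.76%), and on the telomere side 19 and 27 (2.48% and 3.52%), beside backgrounds of 3.61% higher and 3.7% lower. The telomere side thus lay near or under the background in both classes. In tumour nuclei the centromere side lay above it for higher regions and below it for lower ones. In myeloid nuclei the same order was seen with the shared total, but the counts depended on the scaling. With all peaks of a library as its total the median was −0.027, and 20 regions were higher and 25 lower. No background on that scale is given here.

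Accessible regions at promoters differed least. On the centromere side 12 of 313 promoter regions were higher and 3 lower in tumour nuclei, against 114 and 45 of 1439 in gene bodies and 103 and 49 of 940 between genes. The interior had the same order, with 3.56% of promoter, 7.44% of gene-body and 8.18% of intergenic regions higher. Lower there were 1.21%, 4.70% and 6.43%, beside 0.958%, 3.13% and 5.21% on the centromere side. The share of higher interior regions also fell with depth, from 14.1% at 100 to 300 counts to 0.443% at 3000 or more. Depth was not matched between these places. Regions measured in both classes numbered 650 and 729. Of these, 1 centromere-side region was higher in both classes and 0 lower, and 0 telomere-side regions were higher and 1 lower, beside 50 higher and 30 lower of 21323 interior regions.

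Individual ends ranged more widely than the sides. The centromere end of chromosome 9 had the highest summed ratio in tumour nuclei, 0.52 (95% interval 0.51 to 0.53, counting error only), with 0.111% of shared counts in Sun1_KO and 0.0770% in Sun1_WT. Chromosome 3 followed with 0.25, over 18 regions, and chromosome 6 with 0.16, over 115 regions of which 31 were higher and 2 lower. The lowest were chromosome 19 with −0.09, chromosome 13 with −0.03 and chromosome 1 with −0.01. The interior of the same chromosomes had 0.00 for chromosome 9, 0.08 for 3, −0.03 for 6, −0.06 for 19, 0.02 for 13 and 0.01 for 1. Of the 18 centromere ends 14 were above 0, and 14 lay within 0.1 of it.

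On the telomere side 18 of 19 ends lay within 0.1 of 0, and 7 were above it. Chromosome 6 was lowest with −0.12 (7 regions higher, 18 lower), then chromosome 7 with −0.09 (7 and 20) and chromosome 3 with −0.08. Chromosome 17 was highest with 0.07, then chromosome 8 with 0.04 and chromosome 19 with 0.03. Chromosome 6 thus had a centromere end among the 3 highest and the lowest telomere end of these nuclei. In myeloid nuclei the ends of chromosome 9 and 3 also had the highest ratios of the centromere side, 0.16 and 0.15, chromosome 3 on few counts (interval 0.00 to 0.30), whereas chromosome 6 had −0.01 (−0.10 to 0.08).

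**Figure D1:**
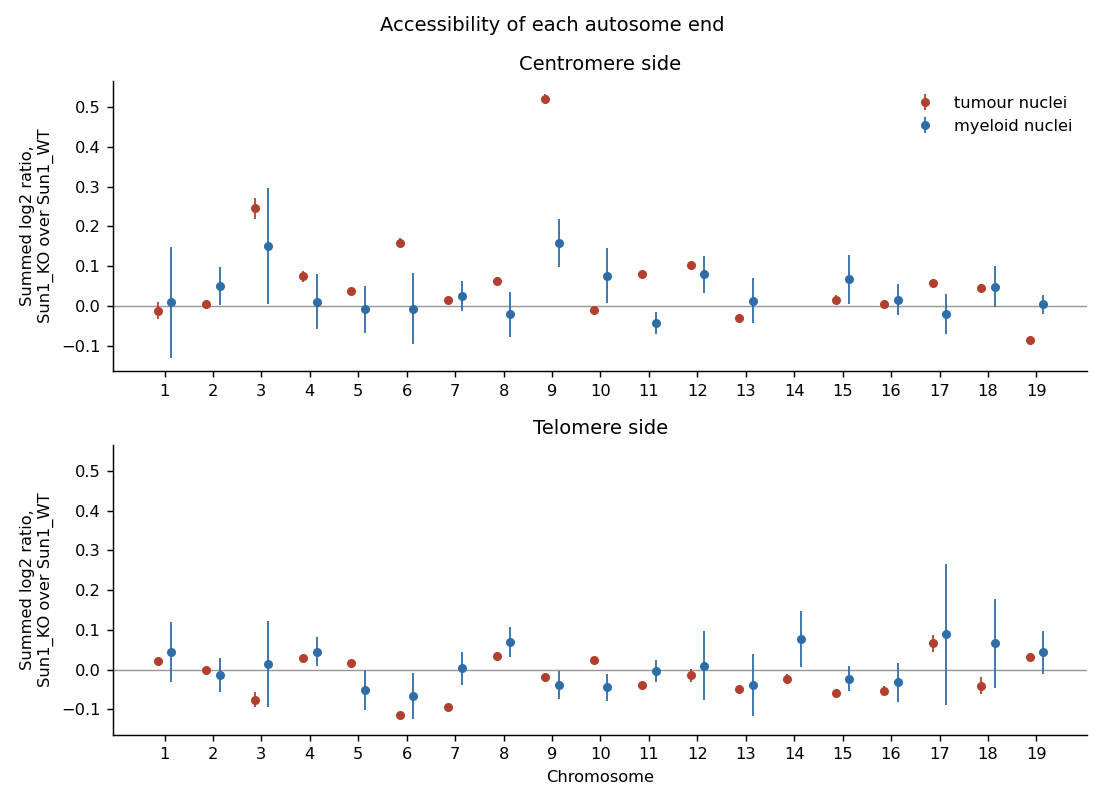
Summed log2 ratio of accessibility, Sun1_KO over Sun1_WT, for each autosome end (x axis: chromosome) in tumour and myeloid nuclei, with 95% intervals for counting error. The centromere end of chromosome 9 stands at 0.52 in tumour nuclei, 14 of 18 centromere ends lie above 0, and 18 of 19 telomere ends lie within 0.1 of it.

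Along the centromere side, up to 6 Mb, the highest ratios lay in the first 0.5 Mb of the assembled chromosomes, a window chosen after these values were seen. Of its 445 regions measured in tumour nuclei, 329 (73.9%) had a ratio above 0, 71 (16.0%) were higher and 11 (2.47%) lower, beside the 7.28% and 4.93% background. The median log2 ratio was 0.17. It was 0.09 in the next bin, up to 4 Mb, and between 0.00 and 0.03 in the bins from there to 6 Mb. Just outside the 6 Mb limit, up to 6.5 Mb, it was 0.00. Farther in, the bin between 7 and 7.5 Mb had a median of 0.07 with 34 of 250 regions higher (13.6%), and the next 0.04 with 10.5% higher. No gradient of this kind was seen towards the telomere, where the medians were −0.01 in the last 0.5 Mb, −0.03 in the next, 0.01 just inside the 3 Mb limit and 0.08 just outside it. In myeloid nuclei the first 0.5 Mb had a median of 0.02 over 92 regions (−0.04 with all peaks of a library as its total), with 2 higher and 0 lower.

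**Figure D2:**
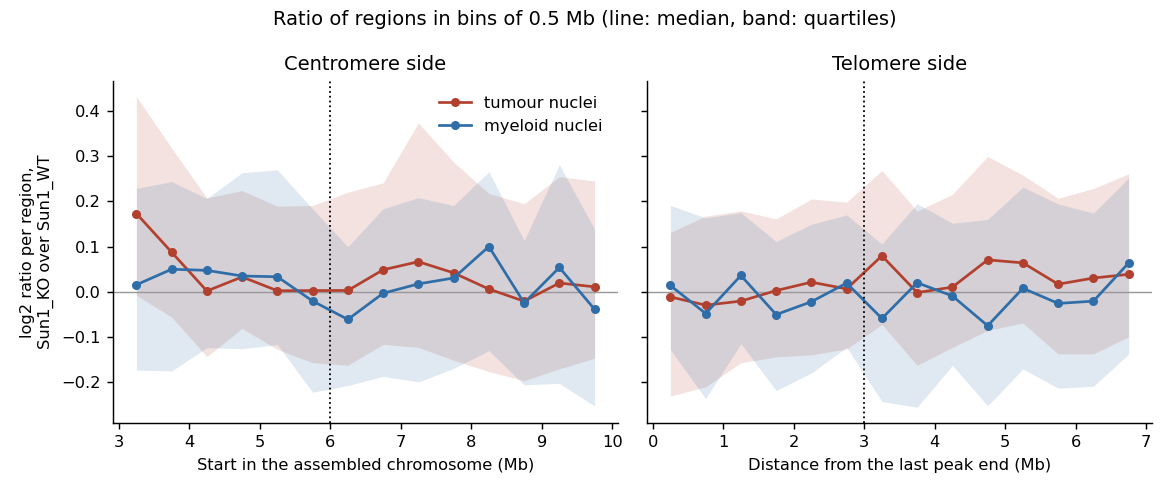
Log2 ratio of regions (Sun1_KO over Sun1_WT) in bins of 0.5 Mb by start in the assembled chromosome (left) and by distance from the last peak end (right). Lines are medians, bands quartiles, and the dotted line marks the limit of the members; the tumour median is 0.17 in the first bin of the centromere side and 0.09 in the next, while the myeloid median starts at 0.02.

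The elevation was shared by most chromosomes. Peaks of both libraries fell in this window on 17 autosomes, and the summed ratio was above 0 on 15 of them, with the interval above 0 on 14. Chromosome 9 was highest at 0.71, followed by chromosome 16 with 0.56 and chromosome 10 with 0.50 over only 5 regions. Chromosome 4 had 0.29, chromosome 11, with the most regions (63), 0.18, and chromosome 17 0.12. Chromosome 2 was below 0 at −0.06 and chromosome 19 at −0.02. With chromosome 9 left out, 62 of 424 regions were higher (14.6%), the median was 0.16 and the summed ratio 0.12, against 0.20 with it. Per nucleus, the median share of shared autosomal counts in the 430 shared regions of this window without chromosome 9 was 0.449% (quartiles 0.423 and 0.480) in Sun1_KO tumour nuclei, against 0.414% (0.384 and 0.445) in Sun1_WT. In myeloid nuclei it was 0.486% in Sun1_KO and 0.484% in Sun1_WT.

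**Figure D3:**
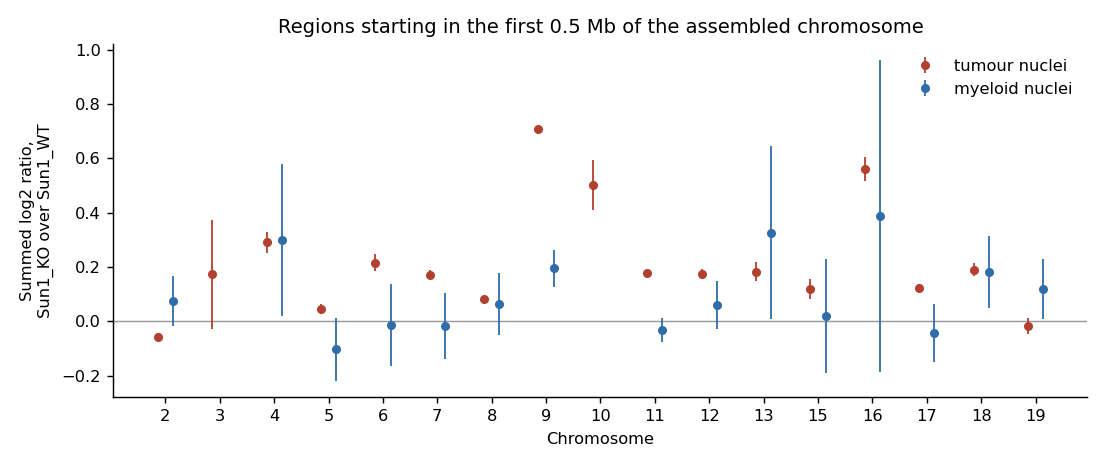
Summed log2 ratio (Sun1_KO over Sun1_WT) of regions starting in the first 0.5 Mb of each assembled autosome, with 95% intervals for counting error, where at least 100 counts were found. In tumour nuclei 15 of 17 chromosomes lie above 0, with chromosome 9 at 0.71 and chromosome 2 at −0.06.

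Depth and the kind of region were looked at within this window, which was chosen after its values were seen. Values above the interior here follow in part from that choice, and a part of depth in them was not tested. In tumour nuclei, regions with few counts had higher ratios. The interior medians were 0.14, 0.08, 0.01 and −0.01 for 100 to 300, 300 to 1000, 1000 to 3000 and more than 3000 counts. In the first 0.5 Mb the medians of the same classes were 0.33, 0.26, 0.19 and 0.06, above the interior in each. Regions between genes had a median of 0.28, with 41 of 178 higher, gene bodies 0.15, and promoters 0.02 with 1 of 42 higher. The interior medians for these places were 0.02, 0.04 and −0.01. Of the 89 regions measured in both classes, 66 were above 0 in tumour nuclei (median 0.07) and 45 in myeloid nuclei (median 0.01), so the tumour median was smaller in the regions that the myeloid depth could reach. Among 3333 interior windows of 0.5 Mb the median ratio per window was 0.03 and the upper quartile 0.13. Of the 16 chromosomes with at least 5 measured regions, 10 had a median in the first 0.5 Mb above that quartile.

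The first 17 regions of chromosome 9, below 3.1 Mb, weighed heavily in that window. They held 15.4% of its counts in Sun1_KO tumour nuclei and 10.7% in Sun1_WT, with a summed log2 ratio of 0.74 in tumour and 0.20 in myeloid nuclei. All 16 that were measured in tumour nuclei were above 0. The remaining 34 regions of that chromosome end had a summed ratio of 0.01. The strongest region, chr9:3024004-3024851, had 436 CPM (accessibility counts scaled to an equal total of shared autosomal counts) in Sun1_KO tumour nuclei and 247 in Sun1_WT, and 378 and 292 CPM in myeloid nuclei. No protein-coding RefSeq gene lies there, and the repeat content of the stretch was not examined, since its genome sequence was not used here. Counting nuclei with a signal instead of counts gave the chromosome 9 end a log2 ratio of 0.08 in place of 0.52, a scale on which a region open in most nuclei can differ little.

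Genes starting in the first 0.5 Mb numbered 104, of which 50 had at least 100 UMIs in tumour nuclei. Of these 10 were higher in Sun1_KO and 1 lower, and the median log2 ratio was 0.38, beside 0.14 over all 12846 measured genes, of which 11.5% were higher and 9.43% lower. Alkbh8, which modifies transfer RNA, lies at the start of chromosome 9 and had 75 RNA CPM in Sun1_KO tumour nuclei and 45.8 in Sun1_WT, a log2 ratio of 0.71. Its neighbour Cwf19l2 had 156 and 114, a ratio of 0.46. In myeloid nuclei the ratios of the pair were −0.37, on 13 and 25 UMIs, and −0.12. The window's 15 measured genes in myeloid nuclei had a median of 0.23, with 1 higher and 0 lower. All 3586 genes measured in these nuclei had a median of 0.07, with 5.24% higher and 5.3% lower.

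Among single regions of the centromere side, the highest ratios in tumour nuclei lay between genes and inside Sgce. The region chr15:3171686-3172982, between genes, had 158 counts in Sun1_KO and 36 in Sun1_WT, 1.38 and 0.206 CPM, a log2 ratio of 2.73 (2.22 to 3.31). Its 1297 bases merged a peak called 654 bases wide in Sun1_KO with one of 652 in Sun1_WT. These peaks overlapped by few bases, so the ratio mostly compares neighbouring bases, not the same ones. Sgce encodes epsilon-sarcoglycan, a membrane protein whose gene is imprinted. Its region chr6:4694473-4695460 had 3.41 CPM in Sun1_KO and 0.680 CPM in Sun1_WT (2.32), and chr6:4684582-4685408 had 3.73 and 1.14 CPM (1.71). Sgce RNA was under the minimum for a measured gene, with 21 UMIs in Sun1_KO and 24 in Sun1_WT. The regions chr4:3052187-3053222 (3.38 and 0.898 CPM) and chr16:3273033-3274002 (3.36 and 1.01 CPM) also lie in the first 0.5 Mb. On chromosome 4 the merged region was 1036 bases long, with peaks called 789 bases wide in Sun1_KO and 407 in Sun1_WT. Per called base the region's log2 ratio was 0.96 in place of 1.91.

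The lowest ratios of that side lay near Armt1, in Gm51934, at the Adcy9 promoter, in Lrp5 and near Klf6. The region over the Adcy9 promoter printed above, chr16:4420075-4420946, had 67 counts in Sun1_KO tumour nuclei and 331 in Sun1_WT, 0.586 and 1.89 CPM, a log2 ratio of −1.68 (−2.09 to −1.31). Adcy9 encodes an adenylyl cyclase, which makes cyclic AMP. In myeloid nuclei, where the same promoter was far more open, it had 45.7 CPM in Sun1_KO and 44.6 in Sun1_WT (0.04). Adcy9 RNA was sparse in tumour nuclei, with 15 and 44 UMIs. Near Armt1, chr10:4455690-4456795 had 0.271 CPM in Sun1_KO and 1.19 in Sun1_WT tumour nuclei (−2.11). This merged region of 1106 bases held peaks called 457 bases wide in Sun1_KO and 689 in Sun1_WT. They overlapped by few bases, so the genotypes were mostly counted over different bases. The Lrp5 region, chr19:3681056-3681975, had 2.62 and 6.31 CPM (−1.27), while the RNA of Lrp5, a Wnt co-receptor, was level at 11.7 and 11.9 RNA CPM. At 68825 bases from Klf6, a zinc-finger transcription factor, chr13:5791776-5792664 had 2.13 and 4.76 CPM (−1.15), and Klf6 RNA had 102 and 144 RNA CPM (−0.50). In Gm51934, chr11:4123094-4123772 had 0.997 and 3.17 CPM (−1.66). Its nearest coding gene, Sec14l2, had 2 UMIs in Sun1_KO tumour nuclei and 28 in Sun1_WT, and the region was even between genotypes in myeloid nuclei (11.3 and 10.2 CPM).

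On the telomere side the highest ratios lay in Kcnh1, Trp73, Pcca and Lrrc7 and between genes near Lrrc7. Kcnh1 encodes a voltage-gated potassium channel. Its region chr1:192426833-192427743 had 576 counts in Sun1_KO and 242 in Sun1_WT tumour nuclei, 5.04 and 1.38 CPM, a log2 ratio of 1.86, and none in myeloid nuclei. Kcnh1 RNA was 34.0 and 31.4 RNA CPM, a ratio of 0.11. The region in Trp73, which encodes the p53 relative p73, had 1.84 and 0.629 CPM (1.54), with 3 and 2 UMIs of RNA. Pcca, a mitochondrial enzyme of propionate breakdown, had a region at 5.15 and 2.04 CPM (1.33), and its RNA was 140 and 103 RNA CPM (0.44).

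The lowest ratios of the telomere side lay in Shank2, between genes near Mrps30 and Gm9631, and in Fndc10. Shank2 encodes a scaffold protein of synapses. Its region chr7:144354816-144355740 had 171 counts in Sun1_KO and 2014 in Sun1_WT tumour nuclei, 1.5 and 11.5 CPM, a log2 ratio of −2.94 (−3.18 to −2.72). A second region of the gene, chr7:144336422-144337337, had 3.96 and 13.2 CPM (−1.74). Shank2 RNA was counted at 14 and 46 UMIs. The intergenic region chr13:118494674-118495606, nearest to Mrps30 among coding genes, had 0.875 and 5.98 CPM (−2.77). In Fndc10, chr4:155694026-155695020 had 0.761 and 2.94 CPM (−1.95) and was also lower in myeloid nuclei, at 8.21 and 13.8 CPM (−0.74). Fndc10 RNA was at 0 UMIs in Sun1_KO and 16 in Sun1_WT tumour nuclei.

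**Figure D4:**
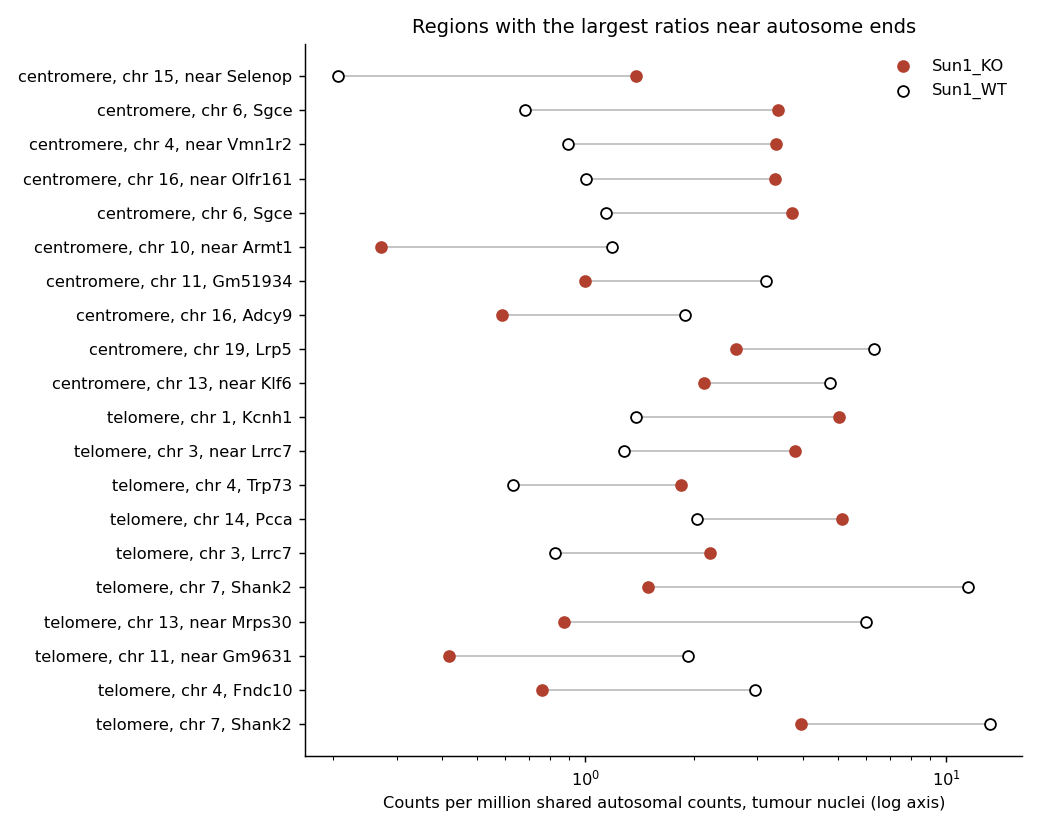
Accessibility in CPM of shared autosomal counts (log axis) of the 5 regions with the highest and the 5 with the lowest ratios on each side in tumour nuclei, Sun1_KO filled and Sun1_WT open. Levels run between 0.206 CPM near Selenop in Sun1_WT and 13.2 CPM in Shank2 in Sun1_WT.

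Named regions of myeloid nuclei rested on fewer counts than most of those of tumour nuclei. A region in Arid1b, a subunit of a chromatin remodeller, had 120 counts in Sun1_KO and 81 in Sun1_WT, 30.8 and 16.2 CPM (0.93). Beside Osm, which encodes the cytokine oncostatin M, chr11:4235062-4235949 had 51 and 138 counts, 13.1 and 27.6 CPM (−1.07), while Osm RNA was 45.7 and 45.9 RNA CPM. On the telomere side a region in Nab2, a co-repressor of EGR factors, had 27.2 and 9.99 CPM (1.44), and 35.1 CPM in tumour nuclei of both genotypes.

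Stretches of 0.5 Mb with at least 10 measured regions were ranked by summed tumour ratio on each side, after the values were seen. The stretches named here are extremes of that ranking, so their many lower or higher regions follow from the choice. Interior stretches were not ranked beside them, and whether such regions cluster was not tested. Among all shared autosomal regions 7.28% were higher and 4.93% lower in tumour nuclei. The Shank2 stretch of chromosome 7 (chr7:143887957-144337337) had 10 of 20 regions lower and 0 higher in tumour nuclei, with 4651 counts in Sun1_KO and 12885 in Sun1_WT, a summed log2 ratio of −0.86. Myeloid nuclei had 39 and 53 counts there (−0.08). The Fgf10 stretch of chromosome 13 had 9 of 27 regions lower and a summed ratio of −0.30. Fgf10, a growth factor of mesenchyme, had 2618 UMIs in Sun1_KO and 7383 in Sun1_WT tumour nuclei, 120 and 178 RNA CPM (−0.57). The Pthlh stretch of chromosome 6 had 8 of 29 lower and a summed ratio of −0.24, on 25666 and 46516 counts. Myeloid nuclei gave −0.06 and 0.00 for the Fgf10 and Pthlh stretches.

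Other stretches were higher in Sun1_KO tumour nuclei. The stretch of chromosome 4 that holds Megf6, Arhgef16, Prdm16 and Actrt2 had 8 of 12 regions higher and 6246 counts in Sun1_KO against 5645 in Sun1_WT tumour nuclei, a summed ratio of 0.76. Prdm16, a regulator of brown fat and stem cells, had 8 and 2 UMIs. The stretch at chr16:3114103-3351706 had 6 of 17 regions higher (0.56) and no coding gene, and the Dync1i1 stretch of chromosome 6 had 6 of 14 higher (0.46). Dync1i1, a dynein intermediate chain, had 13 and 30 UMIs. On the centromere side the stretches with the lowest ratios were milder: −0.22 at Rbfox1, −0.17 at chr9:5634710-5956688 and −0.15 at the caspase genes Casp1, Casp4 and Casp12.

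**Figure D5:**
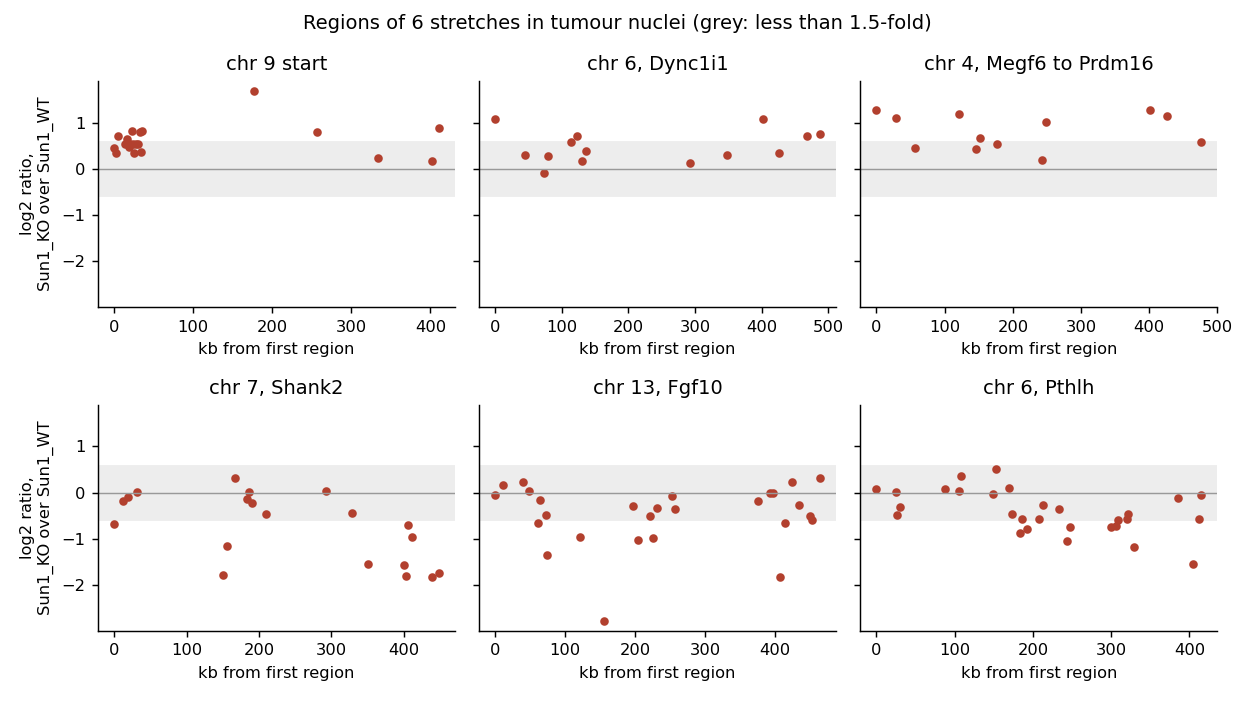
Log2 ratio (Sun1_KO over Sun1_WT) of each measured region in 6 stretches of up to 0.5 Mb in tumour nuclei, by distance in kb from the first region of the stretch; grey marks ratios under 1.5-fold. The stretches were picked as extremes of a ranking by summed ratio. In the Shank2 stretch 10 of 20 regions lie below the grey band, and in the chromosome 4 stretch 8 of 12 lie above it.

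In tumour nuclei the share of genes in the ends with higher RNA was close to that of all genes. The share of lower genes was close on the telomere side and smaller on the centromere side. On the centromere side 369 of 718 genes were measured in tumour nuclei, with 43 higher and 23 lower (11.7% and 6.23%). The telomere side had 441 of 882 measured, with 56 and 44 (12.7% and 9.98%). Of all genes 11.5% were higher and 9.43% lower, and of interior genes 11.0% and 8.18%. The median log2 ratios were 0.19 and 0.11, against 0.14 over all genes, and RNA ratios are best read relative to that shift. With the ratios set to the median of genes outside the ends, 20 of 369 were higher and 42 lower on the centromere side. The telomere side then had 30 of 441 higher and 65 lower. Of all genes 6.86% were higher and 13.9% lower on that scale. In myeloid nuclei 88 and 103 genes were measured, with 5 higher and 3 lower, and 7 higher and 6 lower, beside 5.24% and 5.3% of all.

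Genes of the telomere side with less RNA in Sun1_KO tumour nuclei included Krt18. Krt18, a keratin of simple epithelia, had 1 UMI in Sun1_KO tumour nuclei and 279 in Sun1_WT, 0.0458 and 6.72 RNA CPM, a log2 ratio of −6.62 (−12.5 to −4.71). Pthlh, which encodes the parathyroid hormone-related protein, had 171 and 1651 UMIs, 7.82 and 39.7 RNA CPM (−2.34). The accessible region over the promoter printed above had 27.8 CPM in Sun1_KO and 38.6 in Sun1_WT (−0.47). Slc16a3, the lactate exporter MCT4, had 4.30 and 17.7 RNA CPM (−2.04), and its promoter region 1.60 and 4.76 CPM (−1.57). In myeloid nuclei Slc16a3 had 100 and 145 RNA CPM (−0.52) and its promoter 147 and 208 counts (−0.14). Suox, which encodes sulfite oxidase, had 19.2 and 45.4 RNA CPM (−1.24), with a promoter region at 41.9 and 41.4 CPM (0.02). Tnfrsf26, a member of the TNF receptor family, had 3.89 and 11.1 RNA CPM (−1.51).

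On the centromere side Akr1c18, which inactivates progesterone, had 23 UMIs in Sun1_KO and 358 in Sun1_WT tumour nuclei, 1.05 and 8.62 RNA CPM (−3.0), and its promoter region 3.47 and 4.60 CPM (−0.40). Il11, a cytokine of the interleukin 6 family, had 12 and 27.0 RNA CPM (−1.16), whereas its promoter region had 18.6 and 17.7 CPM (0.07). Rnaseh2c, a subunit of ribonuclease H2, had 8.79 and 19.6 RNA CPM (−1.16), with its promoter at 11.3 and 9.86 CPM (0.20). Pold4, a subunit of DNA polymerase delta, had 12.9 and 27.3 RNA CPM (−1.08), with its promoter at 39.0 and 41.8 CPM (−0.10). Rpl28, a ribosomal protein gene whose processed copies may share reads, had 1187 and 2211 RNA CPM (−0.90) and a promoter at 38.8 and 38.7 CPM (0.00). Rpl28 was also lower in myeloid nuclei (−0.72). For these genes the RNA ratio was far from the promoter ratio.

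Genes with more RNA in Sun1_KO tumour nuclei included Medag, an inducer of fat-cell differentiation, with 18.4 and 5.68 RNA CPM (1.70) and a promoter region at 28.1 and 17.8 CPM (0.66). Brsk1, a kinase of neurons, had 113 and 98 UMIs, 5.17 and 2.36 RNA CPM (1.13), and its promoter 4.06 and 3.01 CPM (0.43). Kmt5c, which writes the histone H4 lysine mark of pericentromeric heterochromatin, had 35.6 and 18.9 RNA CPM (0.91), with a promoter at 89.6 and 92.7 CPM (−0.05). Ltbp3, a binding protein of latent TGF-beta, had 126 and 71.8 RNA CPM (0.81), and Rgs17, which damps G-protein signalling, 64.9 and 36.4 (0.83). Cacng7, a calcium channel subunit, had 78 and 35 UMIs (2.07). On the telomere side Dennd5b had 29.5 and 10.8 RNA CPM (1.44) and Dok6, an adaptor of receptor kinases, 4.39 and 1.35 (1.70). Lars2, the mitochondrial leucyl-tRNA synthetase, had 557 and 211 RNA CPM (1.40) and 616 and 310 in myeloid nuclei (0.99), with its promoter region at 26.9 and 25.7 CPM in tumour nuclei (0.07). The mitochondrial share of RNA moved with it in both classes, at 11.3% and 6.97% in tumour and 8.90% and 5.24% in myeloid nuclei, and its part in the result was not tested. Ccr2, the monocyte chemokine receptor, had 5.63 and 1.32 RNA CPM in tumour nuclei (2.08) and 805 and 727 in myeloid nuclei, where 529 and 697 UMIs were counted. In tumour nuclei the NK markers also summed to 12.1 RNA CPM in Sun1_KO against 6.74 in Sun1_WT, the T-cell markers to 4.71 against 2.50, the neutrophil markers to 2.97 against 1.49, the dendritic markers to 35.8 against 30.9 and the B-cell markers to 1.37 against 0.602. Ptprc was higher there too, while the 15 myeloid markers were at 146 in both, and the part of leukocyte RNA in the Ccr2 value was not tested.

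Genes for proteins that act at chromosome ends were read from 4 lists. Of the 7 shelterin genes, which cap telomeres, all were measured in tumour nuclei, 1 was higher and 0 lower, and the median was 0.31. Pot1b, which binds the single-stranded overhang, had 25.3 RNA CPM in Sun1_KO and 15 in Sun1_WT (0.75), whereas Pot1a had 48.2 and 38.2 (0.34) and Acd 9.24 and 11.7 (−0.33). Of 13 genes that tether telomeres or chromatin to the envelope 10 were measured, with Sun1 lower and 0 higher, and Kash5 was not found under that name. Sun2 had 49.6 and 38.5 RNA CPM (0.37), Lmna 602 and 782 (−0.38), Lmnb1 273 and 211 (0.37) and Emd, which encodes emerin, 33.3 and 47.4 (−0.51). The germ-cell tethers Terb1 and Terb2 had 42 and 2 UMIs in Sun1_KO and 39 and 9 in Sun1_WT, under the minimum.

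All 12 genes of pericentromeric heterochromatin were measured and lay within 1.5-fold, with a median of 0.06. They ranged between −0.54 for Suv39h1, one of the enzymes that write the histone mark of heterochromatin, at 18.9 and 27.5 RNA CPM, and 0.41 for Setdb1, another histone H3 methyltransferase, at 124 and 93.2. The HP1 genes Cbx5, Cbx1 and Cbx3 had 0.26, 0.05 and −0.17. Of 7 genes of telomerase and end replication, 6 were measured and 1 was lower. Tert, the catalytic subunit of telomerase, had 6 UMIs in Sun1_KO and 111 in Sun1_WT, 0.275 and 2.67 RNA CPM (−3.17, −4.76 to −2.12). Dkc1, which stabilises the telomerase RNA, had 94.9 and 121 (−0.35). In myeloid nuclei 1 of 7 shelterin genes, 3 of 13 tethering genes and 0 of 7 telomerase genes reached the minimum. Of the 12 heterochromatin genes 8 did, with 7 within 1.5-fold and a median of 0.17. Cbx5 was higher at 113 and 67.8 RNA CPM (0.73). Among the tethering genes Syne1, a nesprin, was lower at 230 and 347 RNA CPM (−0.59), and Sun1 itself was below the minimum with 15 and 27 UMIs. These counts stand beside the same backgrounds as the other genes, 11.5% and 9.43% in tumour and 5.24% and 5.3% in myeloid nuclei.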

How the data were processed

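RNA and accessibility were measured in the same nuclei of tumours, with 1 library per assay and genotype. The values are counts as deposited by the authors: UMIs per gene and nucleus, and counts per peak and nucleus. The submitters' processing notes list the mm10 build and, with neither versions nor roles, Signac, Seurat, Cell Ranger ARC, Cell Ranger and FastQC. Peaks differ between the libraries and were called for each. Peak counts were even in 75% of nonzero entries in Sun1_KO and 75.5% in Sun1_WT, so counts are not independent fragments and the intervals, which cover counting error only, are too narrow.

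Barcodes entered with 500 or more UMIs over 300 or more genes, of which mitochondrial UMIs made no more than 20%. Tumour nuclei had at least 1 Hmga2 UMI, 3 UMIs over the 8 tumour markers (Hmga2, Hmga1, Igf2bp2, Igf2bp3, Met, Cdh2, Twist1 and Prrx1) and at most 500 CPM of leukocyte genes. Myeloid nuclei had at least 3000 CPM and 3 genes of the 15 myeloid markers, no Hmga2 and at most 1 UMI of T, NK and B genes. No doublet caller was run, and an alternative left out the deepest nuclei of each class.

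Peaks of both libraries that overlapped by at least 1 base were merged, counts were summed over nuclei, and log2 ratios were taken with a pseudocount of 0.5 over shared autosomal counts, or over UMIs without mitochondrial genes. Intervals are exact conditional binomial at 95%. Features with fewer than 100 counts over both libraries were not measured. Genes were placed through RefSeq for 26656 of the 32285 gene names. Named regions and genes were those with the largest ratios per side and direction, ordered by the interval bound nearest a ratio of 1 (5 in tumour, 3 in myeloid nuclei), with the 3 highest and 3 lowest ends, the targeted gene and the listed genes. Members, lists and this rule were chosen with earlier results of these data known. Python 3.11.15, numpy 2.4.6, scipy 1.17.1 and pandas 2.3.3 were used, and the ratio code was tested on simulated data. The first 0.5 Mb, the stretches and the start of chromosome 9 were chosen after their values were seen. The authors' deposited table of expression tests was not used. Some regions and genes that the naming rule picked in myeloid nuclei are not reported here.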

Additional observations from a re-analysis of the deposited data

Results flagged for a closer look

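Tumour and myeloid nuclei had opposite ratios, each with a counting interval apart from 0, at 5 ends and 2 named regions. None of these differences between the classes was tested, since each genotype had 1 library. The tumour ratio comes first in each sentence, and the difference is tumour minus myeloid.

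At the centromere end of chromosome 11 the log2 ratio was 0.08 in tumour and −0.04 in myeloid nuclei, a difference of 0.12. The centromere end of chromosome 10 had −0.01 and 0.08, a difference of −0.087. On the telomere side, chromosome 14 had −0.02 and 0.08, a difference of −0.10. Chromosome 10 had 0.02 and −0.05 there, a difference of 0.068, and chromosome 5 had 0.02 and −0.05, a difference of 0.067. Among the 5 ends, chromosome 11 alone kept opposite intervals under both other scalings. With all peaks as total the myeloid intervals of the chromosome 10 centromere end (−0.053 to 0.085) and the chromosome 14 telomere end (−0.053 to 0.087) included 0. With the interior median set to 0 the tumour ratios were −0.0084 at the chromosome 5 and −0.00048 at the chromosome 10 telomere end.

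The 2 regions differed by more. Beside Armt1, at chr10:4455690-4456795, the ratio was −2.11 in tumour nuclei (31 counts in Sun1_KO and 208 in Sun1_WT) and 3.32 in myeloid nuclei (19 and 2 counts), a difference of −5.44. The merged region of 1106 bases held peaks called 457 bases wide in Sun1_KO and 689 in Sun1_WT, which overlapped by few bases. Its myeloid counts are under the minimum of 100, so the myeloid ratio rests on very few counts. In Gm46496, at chr15:5355048-5355953, it was −0.29 in tumour nuclei (475 and 891 counts) and 0.89 in myeloid nuclei (97 and 67 counts), a difference of −1.18.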

How the results depend on the processing

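No paired analysis was possible because each genotype had 1 library per assay. For the same reason no library could be left out. Of 870 values recomputed under the alternatives, 702 stayed within 1.5 times a count or within the interval of a ratio or median, 168 moved, and no single region or gene past 1.5-fold changed sign. The ratios of 4 ends changed sign, and so did 13 recomputed medians and sums, 5 of them by more than their interval: under all peaks as total the myeloid centromere median and sum and the myeloid first 0.5 Mb, and the tumour telomere medians in wider windows and, for RNA, relative to other genes. The median of the first 0.5 Mb in tumour nuclei lay between 0.15 and 0.19 under the 13 alternatives run for it. These alternatives were chosen after seeing the data, as were those without the start of chromosome 9, per called base and by called width. The cause of a move was not tested, except where fewer or more features entered by construction. Counts of higher and lower features below are given without the share over all features at the same setting. They cannot be set against a background, except for genes relative to the median of genes outside the ends, given above.

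With all peaks as total, the summed ratios were 0.032 (centromere) and −0.023 (telomere) in tumour and −0.044 and −0.064 in myeloid nuclei. There the myeloid medians, which the shared total put at 0.03 on the centromere side, were −0.027 and −0.068, the ends above 0 numbered 5 and 4, the higher centromere-side regions 20, and the first 0.5 Mb had a median of −0.044 with 1 region higher. With interior medians set to 0, tumour medians were 0.021 and −0.025, sums 0.011 and −0.044, and 4 telomere ends were above 0. Summed tumour ratios of the centromere side were 0.018 without the start of chromosome 9, 0.0324 without the deepest nuclei and with stricter gates, and 0.0322 with called widths within 10%, where 1 region of the first 0.5 Mb was higher in myeloid nuclei. Stricter gates left 14 lower telomere-side regions in myeloid nuclei.

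Binarised counts gave 44 and 81 lower regions and sums of 0.012 and −0.028 in tumour nuclei. In myeloid nuclei they gave 2 and 1 higher regions, 0 lower on either side and 0 higher in the first 0.5 Mb. Halved counts gave 7 higher and 3 lower (centromere), and 3 and 1 (telomere), in myeloid nuclei. At a fold of 2, tumour nuclei had 59 higher and 15 lower, 34 and 40, and 23 higher in the first 0.5 Mb. Myeloid nuclei had 0 and 1, 2 and 1, and 0. Genes at that fold numbered 4 and 6, and 13 and 14, in tumour and 0 and 0, and 1 and 0, in myeloid nuclei.

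A minimum of 20 counts gave 122 higher and 140 lower, and 139 and 188, in myeloid nuclei, with 15 higher in the first 0.5 Mb. A minimum of 300 gave 1 and 0, 1 and 1, and 0 there, and a tumour centromere median of 0.030. At a minimum of 20 UMIs, 70 and 89 genes were higher in tumour nuclei, and in myeloid nuclei 34 higher and 26 lower, and 33 and 28. Setting genes outside the ends to a median of 0 gave 20 higher and 42 lower with a median of 0.056, and 30 higher with a median of −0.023.

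Windows of 4.5 and 1.5 Mb gave 140 higher and 47 lower, and 56 and 86, in tumour nuclei, medians of 0.081 and −0.022 and sums of 0.080 and −0.027. Myeloid nuclei had 14 and 7, and 6 and 17. Windows of 9 and 6 Mb gave 390 and 197, and 416 and 288, sums of 0.015 and −0.0079 and a telomere median of 0.017. Myeloid nuclei then had 36 lower on the centromere side, 47 and 60 on the other, and 4 telomere ends above 0.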
